A study of Mus musculus with 6 samples.

Results

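Metallothioneins are small cysteine-rich proteins that hold zinc and cadmium, and metal regulatory transcription factor 1, encoded by Mtf1, switches their genes on. The genes described are Mt1, Mt2, Mt3 and Mtf1, taken by name, and they are 4 of the 14000 genes in the deposited table. A transcript was assigned to them when its identifier, without the version, belonged to one of these genes in mouse GENCODE release M21, which gave 10 of the 27120 listed transcripts. Testicular poly(A) RNA was sequenced from 6 wild-type C57BL/6N mice in 2 groups of 3. In the H+H+Cd group, males of the F2 generation had 2 generations of male forebears, the grandfather and the father, fed a high-fat diet (HFD), and in the H+Cd group, males of the F1 generation had only the father so fed, 1 generation. The HFD ran for 10 weeks, in F0 males from week 5 to week 15 of age, the dams were not on HFD, and the males of both groups drank cadmium chloride (CdCl2) for 10 weeks and were killed at 15 weeks of age. The sample labels give both groups the same treatment, so the diet history comes from the design text. The number of HFD generations and the generation of the males cannot be told apart, and males without cadmium or without paternal HFD were not analysed here, so no level below can be read as a response to cadmium.

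The total level of Mt1 and Mt2 was close in H+H+Cd and H+Cd testes, with more Mt2 and less Mt1 on average in H+H+Cd. Mt1 made up 65.0% ± 0.249 of the Mt1 and Mt2 sum in H+H+Cd and 70.9% ± 3.76 in H+Cd (SD, n = 3 each). Mt3, expressed at a low level, averaged 2.55 ± 0.120 FPKM in H+H+Cd and 1.55 ± 0.375 FPKM in H+Cd, and the groups did not overlap. Mtf1 averaged 20.1 ± 2.13 FPKM in H+H+Cd and 18.5 ± 1.99 FPKM in H+Cd, and the groups overlapped. FPKM is a fragment number scaled to the length of the transcript and to the size of the library, and a gene's FPKM is the sum over its listed transcripts. None of the 4 genes passed the test after adjustment over all genes.

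In the resting cell, zinc bound to metallothionein forms a reserve that cadmium can displace. MTF1 is a zinc finger protein that binds short metal response elements (MREs) in promoters when free zinc rises, and Mt1 and Mt2 are its best known targets. Both are inducible in most tissues, glucocorticoids and oxidative stress raise them too, and mice without both are more sensitive to cadmium. Mt3 is known mainly from brain and responds little to metals, and Mt4 is known from stratified squamous epithelium. The mouse testis is among the organs most easily injured by cadmium, and its germ cells are known to make metallothionein.

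The 3 metallothionein genes lie in order on the plus strand of chromosome 8 in mm10. Mt3 (ENSMUSG00000031760.9) spans 94152607 to 94154146, Mt2 (ENSMUSG00000031762.7) spans 94172664 to 94173568, and Mt1 (ENSMUSG00000031765.8) spans 94179082 to 94180327. Mt2 ends 5513 bases before Mt1 starts, and Mt3 ends 18517 bases before Mt2 starts. Mt4, at 94137197 to 94139031, completes the cluster and was not analysed here. Mtf1 (ENSMUSG00000028890.13) lies on the plus strand of chromosome 4, from 124802104 to 124849800.

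The coding sequences of the main transcripts are printed because cysteine, the residue that binds the metal, is what the 3 proteins share and because similar sequences could exchange reads. They were read from the GENCODE M21 transcript sequences at the annotated coding positions, without the stop codon. The in-frame cysteine codons (TGC or TGT) are in capitals.
Mt1-201: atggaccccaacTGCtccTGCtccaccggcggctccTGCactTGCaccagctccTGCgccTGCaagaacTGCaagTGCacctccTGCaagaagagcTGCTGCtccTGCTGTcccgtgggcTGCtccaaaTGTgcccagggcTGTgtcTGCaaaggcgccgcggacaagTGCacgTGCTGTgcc
Mt2-201: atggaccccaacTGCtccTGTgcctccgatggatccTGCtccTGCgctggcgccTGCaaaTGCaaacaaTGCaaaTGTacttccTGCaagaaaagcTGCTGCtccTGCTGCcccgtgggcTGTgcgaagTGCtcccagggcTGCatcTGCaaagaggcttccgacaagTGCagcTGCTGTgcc
Mt3-201: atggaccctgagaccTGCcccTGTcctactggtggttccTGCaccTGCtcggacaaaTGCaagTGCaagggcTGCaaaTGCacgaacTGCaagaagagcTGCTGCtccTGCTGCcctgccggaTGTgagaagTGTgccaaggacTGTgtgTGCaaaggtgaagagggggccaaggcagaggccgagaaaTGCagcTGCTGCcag
Mt1-201 and Mt2-201 each hold 61 codons, 20 of them for cysteine (32.79%), and Mt3-201 holds 68 codons, also with 20 for cysteine (29.41%). The coding sequences of Mt1 and Mt2 were identical at 145 of 183 bases (79.23%). Mt1 and Mt3 were identical at 65.69% of aligned columns, and Mt2 and Mt3 at 67.16%, each with 21 gap columns for the longer Mt3. The longest run of bases shared by whole transcripts was 20 for Mt1-201 with Mt2-201, 27 for Mt1-201 with Mt3-201 and 20 for Mt2-201 with Mt3-201. How the authors' read assignment treated such short shared runs was not tested.

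The promoter windows are printed because MTF1 acts through MREs in promoters, and they rest on annotated start sites that were not tested. Each is a 300-base RefSeq window of GRCm38.p6 around the annotated start site, on the plus strand, at chr8:94178839-94179138 for Mt1, chr8:94172368-94172667 for Mt2 and chr8:94152357-94152656 for Mt3. Capitals mark the MRE core, searched as TGCACNC or TGCGCNC on both strands, so that a match on the other strand appears as its reverse complement.
Mt1: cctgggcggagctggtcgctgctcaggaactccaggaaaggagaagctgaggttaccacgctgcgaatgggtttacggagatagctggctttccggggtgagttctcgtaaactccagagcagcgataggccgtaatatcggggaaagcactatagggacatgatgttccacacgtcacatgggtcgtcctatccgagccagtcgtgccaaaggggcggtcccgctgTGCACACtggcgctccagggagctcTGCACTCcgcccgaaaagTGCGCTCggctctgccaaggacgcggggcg
Mt2: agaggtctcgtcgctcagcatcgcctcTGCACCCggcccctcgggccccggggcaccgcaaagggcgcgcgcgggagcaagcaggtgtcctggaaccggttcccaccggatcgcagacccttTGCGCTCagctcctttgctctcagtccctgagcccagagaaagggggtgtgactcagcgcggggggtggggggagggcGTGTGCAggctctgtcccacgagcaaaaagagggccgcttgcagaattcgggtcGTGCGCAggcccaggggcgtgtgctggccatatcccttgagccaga
Mt3: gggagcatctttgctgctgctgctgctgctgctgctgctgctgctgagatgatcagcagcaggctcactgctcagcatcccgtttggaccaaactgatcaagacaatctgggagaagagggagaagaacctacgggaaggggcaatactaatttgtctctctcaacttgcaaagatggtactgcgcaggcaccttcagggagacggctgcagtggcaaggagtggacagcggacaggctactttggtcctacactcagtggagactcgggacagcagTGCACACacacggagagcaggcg
The Mt1 window held 3 matches, at positions -23, 3 and 21 from the start site, all on the gene's own strand. The Mt2 window held 4, at -223 and -128 on the gene's strand and at -50 and 5 on the other strand. The Mt3 window held 1, at 28. No match overlapped another. The core is short and common, since 8444 of 32851 mouse promoter windows (25.7%) held at least 1 match, but 647 (1.97%) held 3 or more and 170 (0.517%) held 4 or more. The Mtf1 window, chr4:124802299-124802598, held no match, which says only that these letters are not in that window. The antioxidant response element, searched as TGACNNNGC on both strands, matched once in Mt2, at -79, and in 12.4% of all windows. Outside these windows it was not searched.

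**Figure D1:**
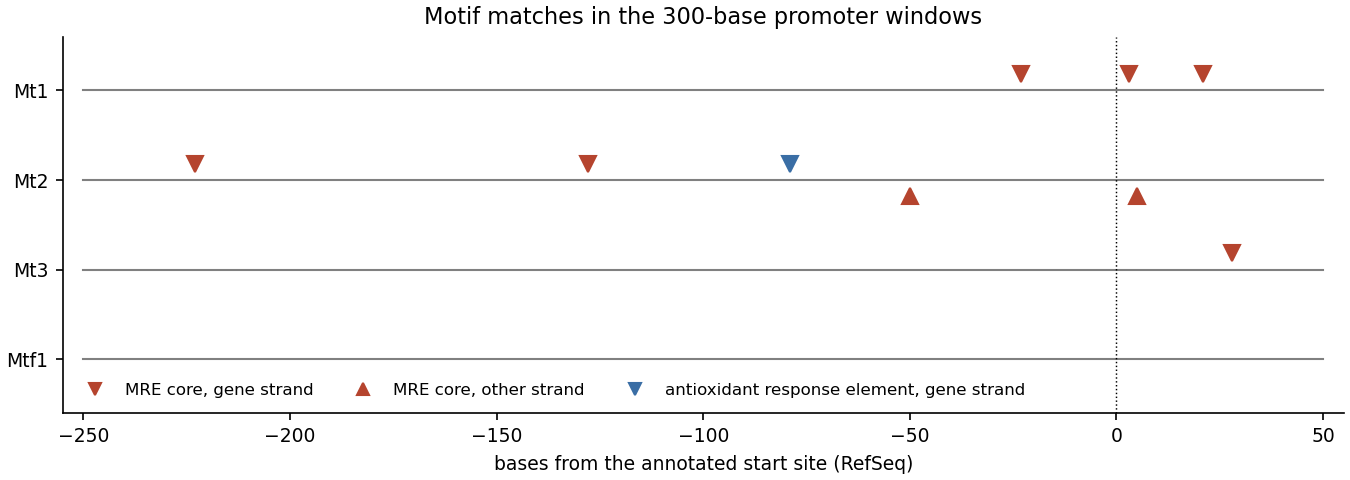
Positions of motif matches in the 300-base RefSeq promoter windows of Mt1, Mt2, Mt3 and Mtf1, in bases from the annotated start site. Red triangles are MRE cores (pointing down, gene strand; pointing up, other strand) and the blue triangle is the antioxidant response element; Mt1 has 3 MRE matches, Mt2 has 4, Mt3 has 1 and Mtf1 has 0.

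MRE cores, but not the antioxidant response element, were searched in the same way in the annotated leader. The leader is the bases before the start codon, which overlap the promoter window in part. The leader of Mt1-201 is 229 bases long and held 4 MRE cores, at bases 10, 28, 92 and 106, and a TATAAA match at base 129. In Mt2-201, with a leader of 184 bases, 3 cores lay at bases 13, 32 and 66 and TATAAA at base 90. In Mt3-201, with 193 bases, 3 cores lay at bases 28, 55 and 87 and TATAAA at base 107. Of the leader cores, 2 in Mt1 and 1 in Mt3 are window matches seen again, so that window and leader together held 5 distinct cores in Mt1, 7 in Mt2 and 3 in Mt3. In all 3 leaders the cores lay before the TATAAA match. Whether transcription starts at the annotated sites was not tested. The cores and TATAAA matches called leader here are therefore not shown to be transcribed, and may lie in promoter sequence. Among the first bases, to the same length, of all annotated transcripts, 0.102% held 4 or more cores at the length of the Mt1-201 leader, 0.369% held 3 or more at that of Mt2-201 and 0.398% at that of Mt3-201. At least 1 TATAAA match was held by 6.35%, 5.1% and 5.37% of them at the lengths of Mt1-201, Mt2-201 and Mt3-201. The leader of Mtf1-201, 146 bases, held neither motif. These matches are a description of the sequence and no site was measured.

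The libraries were comparable in total, which the scaling of FPKM to library size largely sets, and carried testicular markers. The summed FPKM of a library ran over 382815.0 to 397147.5, and 24374 to 25372 transcripts were above 0. The table holds no read counts, so the depth behind each value is unknown. All 8 spermatocyte, 8 round spermatid, 8 elongating spermatid and 8 Leydig cell markers are in the table. H+H+Cd replicate 1 stood apart in tissues other than testis: its summed level of 3 listed epididymal markers was 96.9 FPKM, against 3.08 to 3.79 FPKM in the other 5 libraries, and that of 5 listed trophoblast markers was 88.9 FPKM, against 6.31 to 13.1 FPKM. The members' differences are therefore also given without it. Nothing in the labels gives a batch. The p-values of limma set the difference between groups against the spread between the 3 animals of each group. That spread is moved toward a trend fitted over all features, so these p-values do not rest on a gene's own animals alone. In bulk RNA, fewer cells of a type and less RNA per cell cannot be told apart.

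Mt1, an inducible metallothionein of nearly all tissues, was the most abundant of the 4 genes in each of the 6 libraries. Its level was 293, 319 and 334 FPKM in H+H+Cd replicates 1, 2 and 3, against 326, 380.3 and 366 FPKM in H+Cd replicates 1, 2 and 3. The lowest library was H+H+Cd replicate 1 and the highest were H+Cd replicates 2 and 3, and H+Cd replicate 1 lay within the H+H+Cd range, so the groups overlapped. Among the 14000 genes, Mt1 ranked 130 to 156 in H+H+Cd and 102 to 122 in H+Cd. The log2 fold change of H+H+Cd against H+Cd, on the log2(FPKM + 1) scale, was -0.18 ± 0.0809 (SE), with a 95% interval of -0.38 to 0.02 and an adjusted p of 0.443 (limma, Benjamini-Hochberg). Without H+H+Cd replicate 1 the log2 fold change was -0.13, with an adjusted p of 0.669 from limma.

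Mt2, the second inducible metallothionein, differed from Mt1 in direction. H+H+Cd replicates had 158, 169 and 181 FPKM, and H+Cd replicates had 164, 141 and 134 FPKM. All H+H+Cd libraries lay above H+Cd replicates 2 and 3, but H+Cd replicate 1 lay within the H+H+Cd range, and the groups overlapped. Mt2 ranked 375 to 443 among all genes in H+H+Cd and 414 to 580 in H+Cd. The log2 fold change was 0.21 ± 0.0933 (SE), with a 95% interval of -0.01 to 0.44 and an adjusted p of 0.435 (limma), and without H+H+Cd replicate 1 it was 0.26, with an adjusted p of 0.609.

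Mt3, the brain form of the family, was detected in every testis at a low level. It had 2.43, 2.55 and 2.67 FPKM in H+H+Cd replicates, against 1.54, 1.17 and 1.92 FPKM in H+Cd replicates. Every H+H+Cd library lay above every H+Cd library, and the H+H+Cd values were the more tightly grouped. Its rank among genes was 9432 to 9867 in H+H+Cd and 10334 to 11426 in H+Cd. The log2 fold change was 0.49 ± 0.130 (SE), with a 95% interval of 0.17 to 0.80. The adjusted p was 0.358 (limma), so that Mt3 did not pass the test although its unadjusted p was 0.00861, the 326th smallest of 13769 genes tested. Without H+H+Cd replicate 1 the log2 fold change was 0.51, with an adjusted p of 0.609 from limma.

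Mtf1, the metal sensor, was expressed at a moderate level. The values were 19.3, 18.6 and 22.6 FPKM in H+H+Cd replicates and 20.8, 17.4 and 17.2 FPKM in H+Cd replicates. H+H+Cd replicate 3 was highest, H+Cd replicate 1 came next, and the groups overlapped. The gene ranked 3271 to 3791 in H+H+Cd and 3564 to 4006 in H+Cd. The log2 fold change was 0.12 ± 0.108 (SE), with a 95% interval of -0.14 to 0.38 and an adjusted p of 0.674 (limma), and without H+H+Cd replicate 1 it was 0.15. It was 0.04 without H+H+Cd replicate 3 and 0.20 without H+Cd replicate 1.

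**Figure D2:**
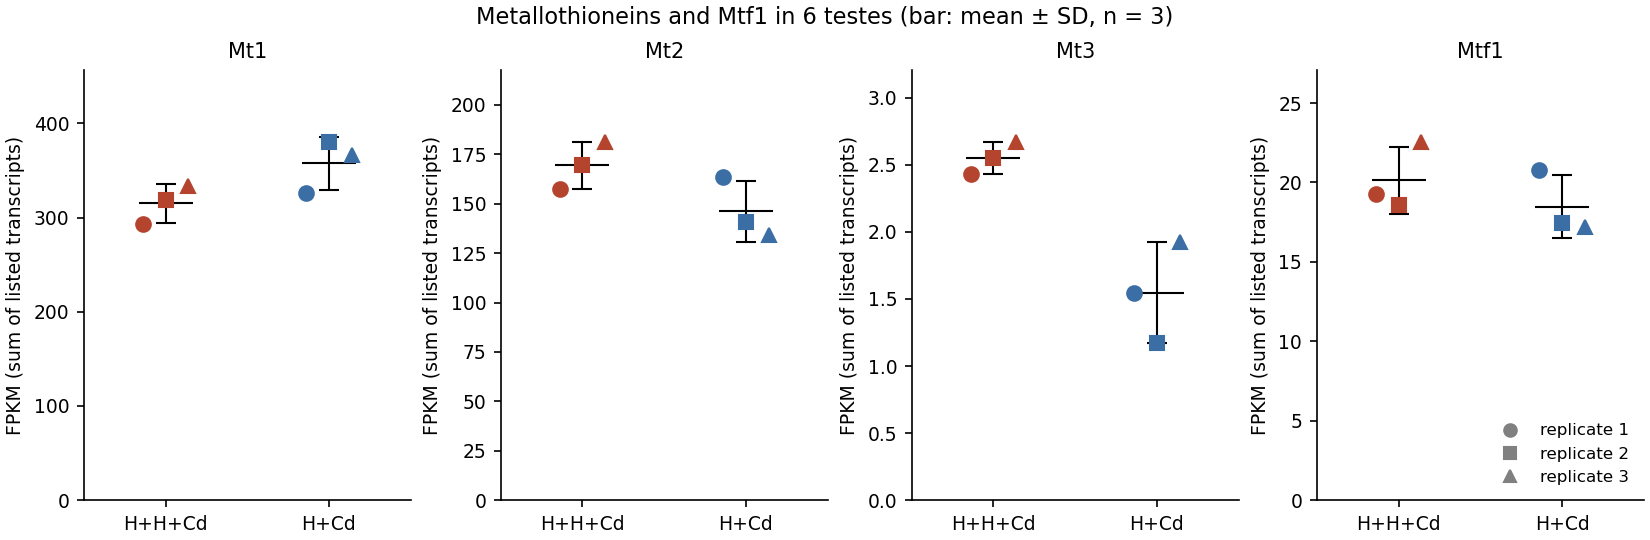
FPKM of Mt1, Mt2, Mt3 and Mtf1 (sum of listed transcripts) in each library, H+H+Cd left and H+Cd right, with the mean ± SD of 3 testes as bars and the replicate number as the symbol. Mt3 is the only gene of the 4 whose groups do not overlap, at 2.43 to 2.67 FPKM in H+H+Cd and 1.17 to 1.92 FPKM in H+Cd.

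The order Mt1, Mt2, Mtf1, Mt3 held in all 6 libraries, on the per-length FPKM scale, and the ranges of neighbours in that order did not meet. None of the 4 genes was called by limma at an adjusted p under 0.05, or by an adjusted F-test, where by limma 1 of 13769 genes tested (0.00726%) was. Mt3 was the 1 gene of the 4 with an unadjusted p under 0.05, where 1638 genes (11.9%) had one. It was also the 1 gene without overlap between the groups, where 19.4% of all genes tested did not overlap and 8.34% lay higher in H+H+Cd. The median log2 fold change of all genes tested was 0.00, with 50.2% positive, a balance that the scaling of FPKM to library size largely sets.

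The opposite directions of Mt1 and Mt2 appeared most clearly as a ratio within each library, which does not depend on how libraries are scaled. Mt1 made up 65.0%, 65.3% and 64.8% of the Mt1 and Mt2 sum in H+H+Cd replicates, against 66.6%, 73.0% and 73.2% in H+Cd replicates. The 3 H+H+Cd libraries lay within 1 narrow band, H+Cd replicate 1 lay just above it, and H+Cd replicates 2 and 3 lay far above, so the groups did not overlap but the gap between them was small. The difference of means was -5.87 percentage points, with an exact permutation p of 0.1 (two-sided), which is the smallest that 3 against 3 can give. Leaving out any 1 library gave differences of -8.04 to -4.73 percentage points, the first of them without H+Cd replicate 1. In the main transcripts alone, Mt1-201 made up 65.0 ± 0.0766% of Mt1-201 and Mt2-201 together in H+H+Cd and 70.8 ± 3.42% in H+Cd.

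The sum of Mt1 and Mt2 was 450.4, 488 and 515 FPKM in H+H+Cd replicates, against 489.5, 521 and 500.3 FPKM in H+Cd replicates. The groups overlapped, and their means of 485 ± 32.5 FPKM in H+H+Cd and 504 ± 16.1 FPKM in H+Cd differed by less than the SD of the H+H+Cd libraries (exact permutation p = 0.4, two-sided). Per unit of Mtf1, the sum averaged 24.2 ± 1.88 in H+H+Cd and 27.5 ± 3.43 in H+Cd (exact permutation p = 0.2, two-sided).

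The libraries with the high Mt1 share were also those with the highest spermatocyte and elongating spermatid markers. The summed level of 8 spermatocyte markers was 2785, 2784 and 2674 FPKM in H+H+Cd replicates, against 2788, 3385 and 3397 FPKM in H+Cd replicates. It did not overlap between the groups, and H+Cd replicate 1 was again next to the H+H+Cd libraries, with H+Cd replicates 2 and 3 far above. Of the 8 markers, 0 were called by limma, 3 had an unadjusted p under 0.05, against 11.9% of all genes tested, and 2 had a positive log2 fold change, against 50.2%. The elongating spermatid sum was 16699.0, 15680.2 and 16141.1 FPKM in H+H+Cd replicates, against 13879.3, 18915.3 and 18982.7 FPKM in H+Cd replicates, so that H+Cd replicates 2 and 3 were again highest, but the groups overlapped. The round spermatid sum did not follow this order, with 887, 978 and 1028 FPKM in H+H+Cd replicates and 1015, 894 and 937 FPKM in H+Cd replicates. The Sertoli cell sum of 9 listed markers was 364 to 411 FPKM in H+H+Cd and 405 to 414 FPKM in H+Cd, with overlap. Of these 9, 0 were called by limma and 3 had an unadjusted p under 0.05, against 11.9% of all genes tested. A positive log2 fold change was found for 3 of the 9, against 50.2%, with a median of -0.12. The part of cell makeup in the Mt1 share was not tested.

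**Figure D3:**
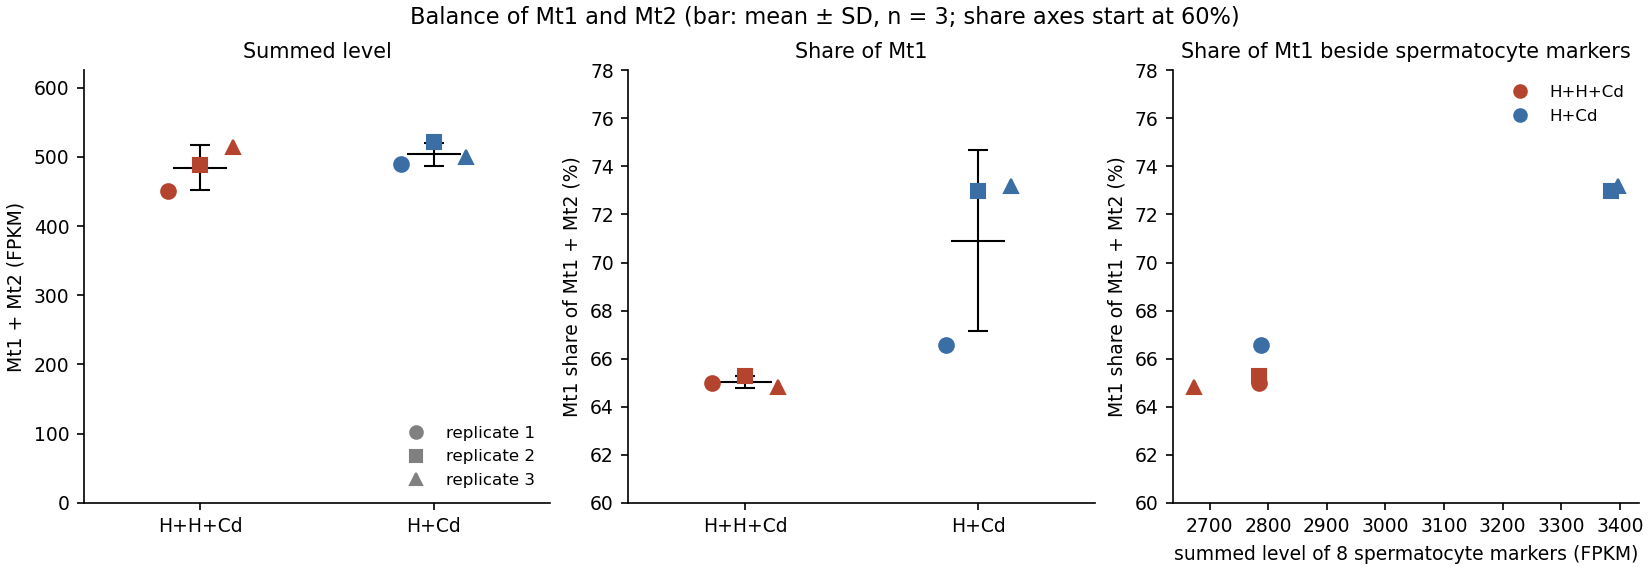
Left, summed FPKM of Mt1 and Mt2 by library; middle, Mt1 as a percentage of that sum (axis from 60%), both with H+H+Cd left, H+Cd right and mean ± SD of 3 testes; right, the same percentage against the summed FPKM of 8 spermatocyte markers. H+H+Cd libraries lie at 64.8% to 65.3%, H+Cd replicate 1 at 66.6%, and H+Cd replicates 2 and 3 at 73.0% and 73.2% with 3385 and 3397 FPKM of spermatocyte markers.

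For Mt3, sums of endothelial, macrophage, myoid and Leydig cell markers are given. Each of these lists had a positive median log2 fold change, the sign of Mt3, and the Sertoli cell list given above had a negative one. The sum of 4 listed endothelial markers was 3.97, 3.91 and 4.08 FPKM in H+H+Cd replicates, against 3.90, 3.36 and 3.09 FPKM in H+Cd replicates, without overlap. Within H+Cd, replicate 3 had the lowest endothelial sum and the highest Mt3. The gap was narrow, between 3.911 FPKM in H+H+Cd replicate 2 and 3.903 FPKM in H+Cd replicate 1. The sum of 7 macrophage markers was 34.8 to 47.1 FPKM in H+H+Cd and 29.6 to 35.7 FPKM in H+Cd, and 6 of the 7 had a positive log2 fold change. The sum of 5 myoid cell markers was 174 to 210.4 FPKM in H+H+Cd and 143 to 198 FPKM in H+Cd, and all 5 had a positive log2 fold change, with a median of 0.23. The sum of 8 Leydig cell markers was 469 to 560 FPKM in H+H+Cd and 254 to 573 FPKM in H+Cd, with overlap. Of these 8, 5 had a positive log2 fold change. By limma 0 markers of these lists were called. An unadjusted p under 0.05 was found for 1 of the 4 endothelial, 3 of the 7 macrophage, 1 of the 5 myoid and 1 of the 8 Leydig cell markers, against 11.9% of all genes tested. Their part in the Mt3 values was not tested.

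By transcript, Mt1-201 and Mt2-201 carried nearly all Mt1 and Mt2 signal. Mt1-201 (ENSMUST00000034215.7, 3 exons, 549 bases) had 287, 306 and 333 FPKM in H+H+Cd and 325, 368 and 358 FPKM in H+Cd, which parallels the gene sum. Mt2-201 (ENSMUST00000034214.7, 3 exons, 511 bases) had 155, 166 and 179 FPKM in H+H+Cd and 161, 139 and 133 FPKM in H+Cd. The log2 fold change was -0.18 for Mt1-201 (adjusted p = 0.600, limma) and 0.21 for Mt2-201 (adjusted p = 0.601).

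The minor forms of both genes were more variable. Mt1-203 (2 exons, 633 bases) had 4.91, 11.8 and 0.445 FPKM in H+H+Cd and 0.410, 11.5 and 7.45 FPKM in H+Cd, a scatter within each group with no order between the groups. It has 0 exonic bases outside the other listed Mt1 transcripts. Mt1-202 (1 exon, 1085 bases) had 0.321, 0.577 and 0.227 FPKM in H+H+Cd and 0.708, 0.678 and 0.627 FPKM in H+Cd. Its levels were lower in each H+H+Cd library than in any H+Cd library, with a log2 fold change of -0.29 and an adjusted p of 0.626 (limma), and with a log2 fold change of -0.76 at a pseudocount of 0.1. Mt2-202 (3 exons, 388 bases) had 2.76, 3.84 and 2.47 FPKM in H+H+Cd and 2.64, 1.60 and 1.39 FPKM in H+Cd, with overlap, a log2 fold change of 0.50 and an adjusted p of 0.601 (limma). Mt3 was listed through 1 transcript, Mt3-201 (ENSMUST00000034211.9, 3 exons, 536 bases), whose adjusted p over all transcripts was 0.573 (limma).

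Mtf1 was listed through 4 transcripts whose balance differed between libraries more than their sum. Mtf1-201 (ENSMUST00000030723.2, 11 exons, 7631 bases) and Mtf1-202 (ENSMUST00000106193.7, 12 exons, 7554 bases) carry the same coding sequence of 2025 bases and share 7210 exonic bases. They differ at both ends. Mtf1-202 starts upstream, with a first exon at 124802104 to 124802203, and its 344 bases outside Mtf1-201 all lie before Mtf1-201 starts. Mtf1-201 runs on to 124849800 where Mtf1-202 ends at 124849379, and its 421 bases outside Mtf1-202 all lie past that end. Mtf1-203 (4 exons, 636 bases) and Mtf1-205 (2 exons, 750 bases) are short models, both with an incomplete annotated coding sequence.

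Mtf1-201 had 15.3, 9.77 and 9.52 FPKM in H+H+Cd, against 13.4, 12.9 and 12.9 FPKM in H+Cd. Mtf1-202 was listed at 0, 3.50 and 8.28 FPKM in H+H+Cd and at 0 in all 3 H+Cd libraries. Thus 2 of 3 H+H+Cd testes and no H+Cd testis had a value above 0 for this form, and H+H+Cd replicate 1, which stood apart in other markers, resembled H+Cd here. Mtf1-202 had an adjusted p of 0.600 (limma), and no fold is given against a group listed at 0. Only 344 of its bases (4.554%) lie outside the other listed Mtf1 transcripts, and 421 bases (5.517%) of Mtf1-201 do, so that the split between them rests on a small part of either sequence, at the 5′ end for Mtf1-202 and at the 3′ end for Mtf1-201.

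The sum of Mtf1-201 and Mtf1-202, which code for the same protein, was 15.3, 13.3 and 17.8 FPKM in H+H+Cd, against 13.4, 12.9 and 12.9 FPKM in H+Cd. H+H+Cd replicate 2 lay just below the highest H+Cd library, and the groups overlapped (exact permutation p = 0.2, two-sided). Mtf1-202 made up 0%, 26.4% and 46.5% of that sum in H+H+Cd and 0% in each H+Cd library (exact permutation p = 0.4, two-sided).

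Mtf1-203 had 1.58, 2.70 and 4.48 FPKM in H+H+Cd, against 3.51, 1.52 and 1.47 FPKM in H+Cd, with overlap and an adjusted p of 0.811 (limma). It has 0 exonic bases outside the other listed Mtf1 transcripts. Mtf1-205 had 2.43, 2.58 and 0.266 FPKM in H+H+Cd, against 3.89, 2.99 and 2.81 FPKM in H+Cd. Each H+H+Cd library lay below each H+Cd library for Mtf1-205, H+H+Cd replicate 3 by far the lowest. Its log2 fold change was -0.75, with a 95% interval of -1.84 to 0.34 and an adjusted p of 0.662 (limma). It was -0.26 without H+H+Cd replicate 3 and -1.28 at a pseudocount of 0.1. As a share of the Mtf1 sum, Mtf1-205 took 12.6%, 13.9% and 1.18% in H+H+Cd and 18.7%, 17.1% and 16.4% in H+Cd (exact permutation p = 0.1, two-sided, the smallest that 3 against 3 can give). Without H+H+Cd replicate 3, the difference in that share of Mtf1-205 was -4.16 in place of -8.18 percentage points.

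**Figure D4:**
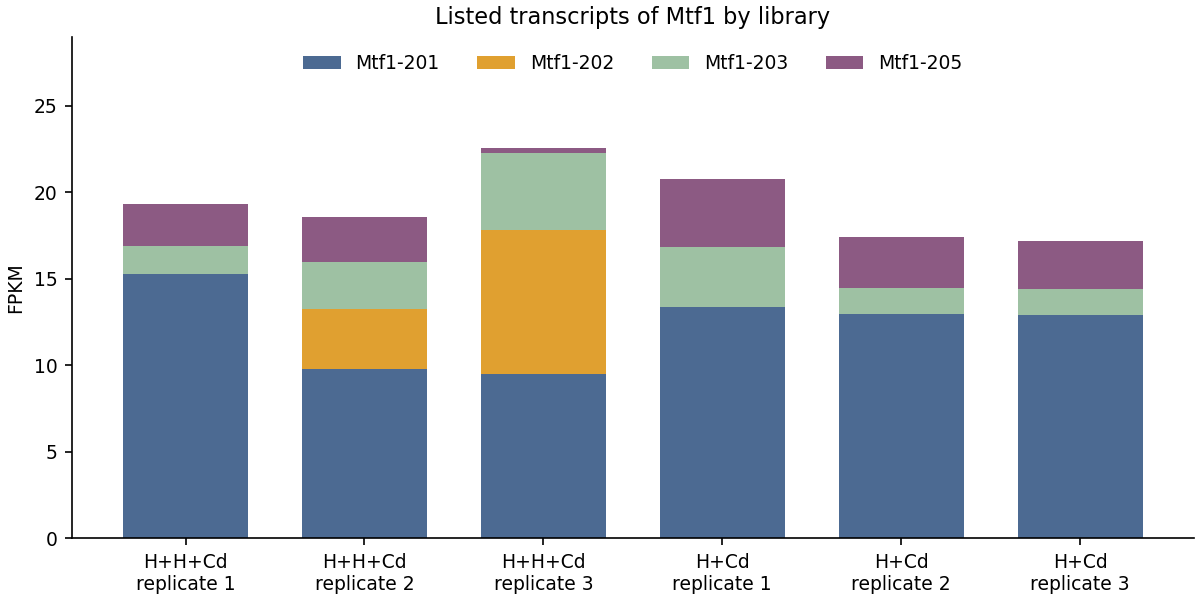
FPKM of the 4 listed Mtf1 transcripts, stacked by library, with the 3 H+H+Cd testes left and the 3 H+Cd testes right. Mtf1-202 (orange) appears in H+H+Cd replicates 2 and 3 only, at 3.50 and 8.28 FPKM, and Mtf1-205 (purple) is smallest in H+H+Cd replicate 3, at 0.266 FPKM.

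Of the 10 transcripts of these genes, none was called at an adjusted p under 0.05, where 33 of 25322 transcripts tested (0.13%) were. Mt3-201 alone had an unadjusted p under 0.05, where 8.24% of all transcripts had one. The groups did not overlap for 3 of the 10 (Mt3-201 higher, Mt1-202 and Mtf1-205 lower in H+H+Cd), where 15.9% of all transcripts did not, 7.29% higher and 8.62% lower.

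Across the 6 libraries, Mtf1 went with Mt2 more than with Mt1. For Mtf1 with Mt2, Pearson r was 0.867 and Spearman rho 0.829 on log2(FPKM + 1), with exact permutation p-values of 0.0292 and 0.0583 and an adjusted p of 0.0875 for r over 3 relations. Without the 2 libraries farthest from the median of Mtf1, r was 0.641, and for deviations from the group means it was 0.873. For Mtf1 with Mt1, r was -0.475 and rho -0.429 (exact permutation p = 0.347 and 0.419, adjusted p = 0.347). For Mt1 with Mt2, r was -0.622 and rho -0.429 (exact permutation p = 0.188 and 0.419, adjusted p = 0.281), and for deviations from the group means r was -0.216. No relation passed the adjustment, and the values of a library share its scaling.

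The genes whose levels were most like those of each member, by Pearson r of log2(FPKM + 1) over the 6 libraries among genes of at least 5 FPKM, are given as a description. For Mt1 they were Med23 (0.983), a subunit of the Mediator complex, Mia2 (0.978), a secretory pathway protein, and Rp1 (0.978). For Mt2 they were Dynlt1b (0.997), a dynein light chain, Hscb (0.996), a mitochondrial co-chaperone of iron-sulfur cluster assembly, and Fbxl13 (0.996). For Mt3 they were Dctpp1 (0.990), a nucleotide pyrophosphatase, Rnpep (0.983), an aminopeptidase, and Inppl1 (0.975), an inositol phosphatase. For Mtf1 they were Tgfbi (0.997), an extracellular matrix protein, Ppp2r2a (0.996), a regulatory subunit of protein phosphatase 2A, and Zbtb3 (0.989), a zinc finger protein. With 6 libraries such values are common, since 137 of 7670 genes had an r above 0.95 with Mt2, 73 with Mtf1, 23 with Mt1 and 15 of 7671 with Mt3.

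The neighbours of the cluster showed no change that passed the test. Of 7 protein-coding genes in the cluster or within 100 kb of it, with Mt1, Mt2, Mt3 and Mt4 counted, 6 are listed. Bbs2, a component of the ciliary BBSome, averaged 13.3 ± 0.228 FPKM in H+H+Cd and 14.4 ± 0.146 FPKM in H+Cd. The groups did not overlap, H+H+Cd being lower as in 11% of all genes tested, and the adjusted p of Bbs2 was 0.503 (limma). Nup93, a nuclear pore protein, had 10.7, 11.3 and 10.7 FPKM in H+H+Cd and 10.7, 12.3 and 12.6 FPKM in H+Cd, with overlap. Ogfod1, an oxygenase, averaged 2.79 ± 0.0453 FPKM in H+H+Cd and 2.65 ± 0.287 FPKM in H+Cd. Mt3 and Mt2 had positive log2 fold changes and Mt1, in the same cluster, a negative one.

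Genes described as MTF1 targets were split in direction, in a list not sorted by whether MTF1 raises or lowers each gene. Of 8 in the list, Mt1 and Mt2 included, 4 had a positive and 4 a negative log2 fold change, with a median of -0.03, against 0.00 over all genes. By limma 0 of the 8 were called and 1, Slc30a1, had an unadjusted p under 0.05, against 11.9% of all genes tested. Slc30a1, the plasma membrane zinc exporter, had 11.2, 11.3 and 12.0 FPKM in H+H+Cd, against 13.3, 13.2 and 13.2 FPKM in H+Cd. All H+H+Cd libraries were below all H+Cd libraries for it, as in 11% of all genes tested, with a log2 fold change of -0.18, the same sign as Mt1, an unadjusted p of 0.0276 and an adjusted p of 0.390 (limma). Its direction was opposite to that of Mt2, which shares the regulator. Selenow, a selenoprotein, averaged 111 ± 2.65 FPKM in H+H+Cd and 116 ± 3.89 FPKM in H+Cd (adjusted p = 0.600, limma). Gclc, the catalytic subunit of the enzyme that starts glutathione synthesis, averaged 12.5 ± 0.227 FPKM in H+H+Cd and 12.4 ± 0.628 FPKM in H+Cd.

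Mtf2, which shares the metal response name with Mtf1, belongs with Phf1 to the Polycomb-like family, and both had negative log2 fold changes. Phf1 averaged 22.7 ± 0.655 FPKM in H+H+Cd and 24.8 ± 1.08 FPKM in H+Cd (adjusted p = 0.496, limma). Its H+H+Cd libraries were all below the H+Cd libraries, as in 11% of all genes tested. Mtf2 averaged 9.39 ± 0.769 FPKM in H+H+Cd and 10.9 ± 1.45 FPKM in H+Cd (adjusted p = 0.547, limma). Phf19 was not analysed here, and 0 of the 3 tested genes of this list, Mtf1 included, were called by limma or had an unadjusted p under 0.05.

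Among 18 tested carriers of zinc and cadmium, 15 had a negative and 3 a positive log2 fold change, against 50.2% positive over all genes. Their median was -0.11, against 0.00 over all genes. None of them was called, 3 had an unadjusted p under 0.05, against 11.9% of all genes, and 4 did not overlap between groups, against 19.4% of all genes. Slc39a13, a zinc importer of the ZIP family in intracellular membranes, had 7.40, 6.61 and 6.54 FPKM in H+H+Cd, against 9.21, 9.67 and 9.02 FPKM in H+Cd. The groups did not overlap, and the log2 fold change was -0.39, with a 95% interval of -0.59 to -0.20 and an adjusted p of 0.334 (limma), the smallest of the list. Slc39a8, the ZIP carrier linked to cadmium damage of the mouse testis, averaged 17.9 ± 1.23 FPKM in H+H+Cd and 19.6 ± 0.654 FPKM in H+Cd (adjusted p = 0.530, limma). Slc39a6, the most abundant carrier of the list, averaged 42.9 ± 2.21 FPKM in H+H+Cd and 43.4 ± 0.492 FPKM in H+Cd. The exporter Slc30a1 and the importers Slc39a8 and Slc39a13 had lower means in H+H+Cd. The carriers Slc39a10, Slc39a4 and Slc30a7 had higher means, with overlap and log2 fold changes of 0.10, 0.12 and 0.25.

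The other inputs to metallothionein genes, 8 genes of glucocorticoid signalling and promoter-binding factors, gave 4 positive and 4 negative values with a median of -0.01. By limma 0 were called and 1, Usf2, had an unadjusted p under 0.05, against 11.9% of all genes tested. Usf2, a factor that binds E-boxes, had 1.65, 4.42 and 1.84 FPKM in H+H+Cd, against 0.749, 0.0705 and 1.33 FPKM in H+Cd. Each H+H+Cd library was above each H+Cd library, as in 8.34% of all genes, the values within a group were widely spread, and the adjusted p was 0.390 (limma). The E-box CACGTG was in 7.15% of all promoter windows and in none of the Mt1, Mt2, Mt3 and Mtf1 windows. It was not searched in the leaders, which may hold promoter sequence. Tsc22d3, a glucocorticoid-induced gene, averaged 2.80 ± 1.56 FPKM in H+H+Cd and 3.76 ± 0.689 FPKM in H+Cd (adjusted p = 0.609, limma), and Sp1, the most abundant of the list, averaged 12.5 ± 0.611 FPKM in H+H+Cd and 13.6 ± 1.15 FPKM in H+Cd.

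Genes known to rise with cadmium and oxidative stress were also split, 5 positive and 4 negative of 9, with a median of 0.01. By limma 0 were called and 1, Txnrd1, had an unadjusted p under 0.05, against 11.9% of all genes tested. The groups did not overlap for 2 of the 9, Txnrd1 and Hmox1, against 19.4% of all genes. Txnrd1, thioredoxin reductase, had 11.1, 11.5 and 11.6 FPKM in H+H+Cd, against 13.3, 13.5 and 12.5 FPKM in H+Cd. All H+H+Cd libraries were lower, with a log2 fold change of -0.18, an unadjusted p of 0.0320 and an adjusted p of 0.393 (limma). Hmox1, heme oxygenase, whose direction was the opposite, had 4.72, 3.94 and 4.36 FPKM in H+H+Cd, against 3.82, 3.89 and 3.75 FPKM in H+Cd. Its H+H+Cd libraries were all above the H+Cd libraries, with a log2 fold change of 0.15 and an adjusted p of 0.549 (limma).

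**Figure D5:**
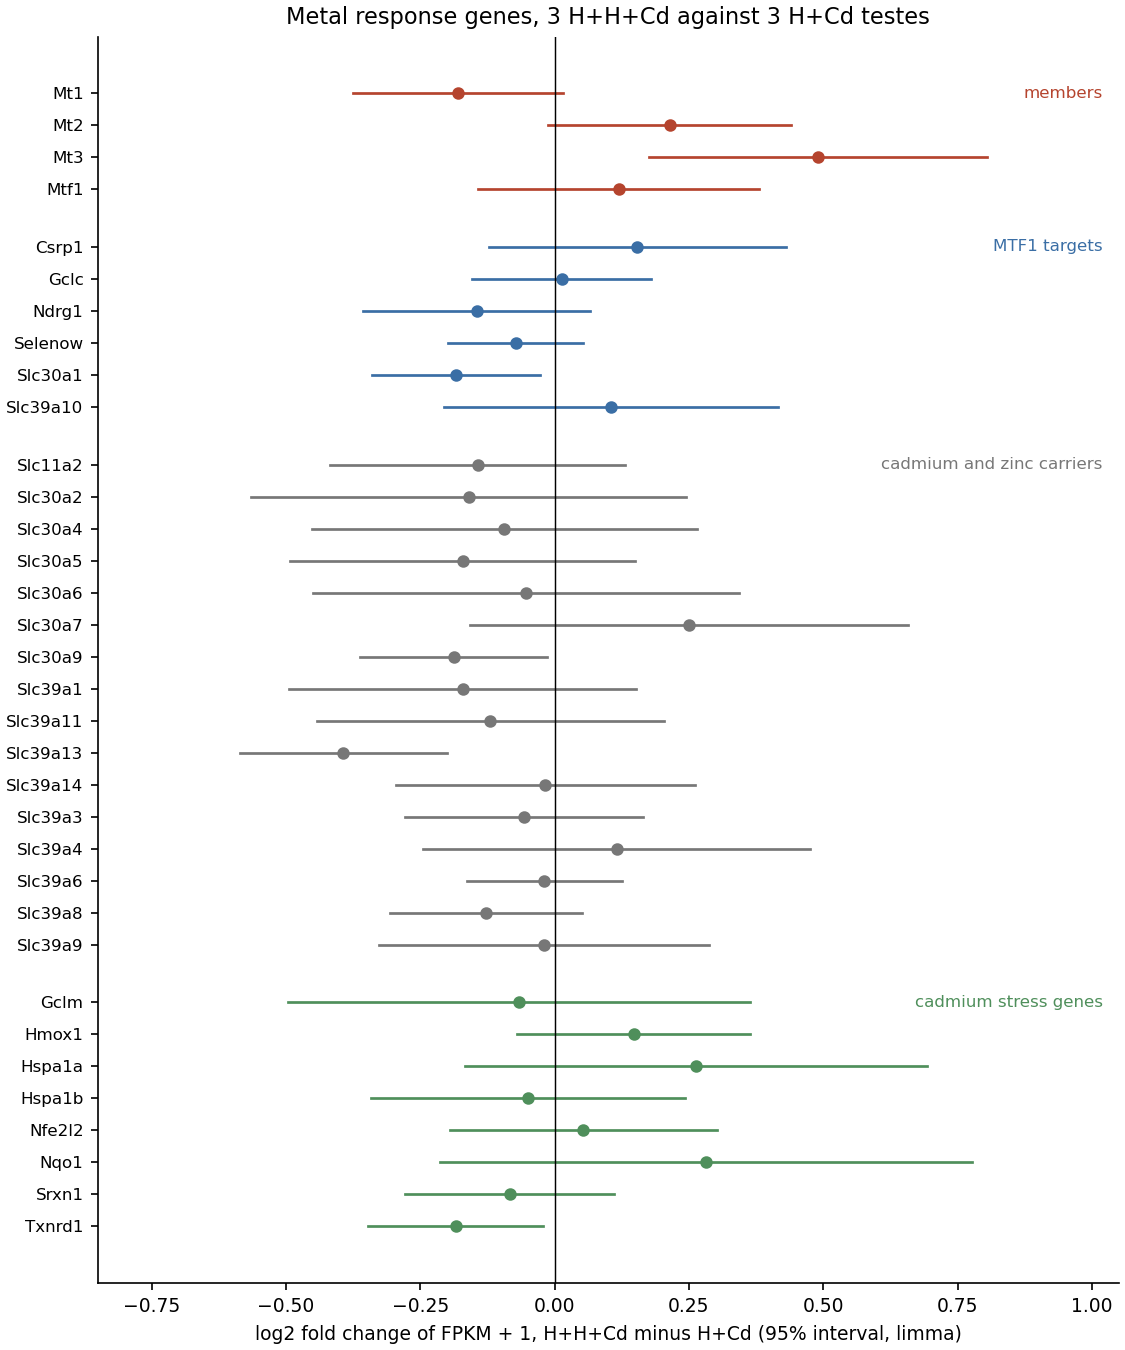
Log2 fold change of FPKM + 1, H+H+Cd minus H+Cd, with limma's 95% interval, for Mt1, Mt2, Mt3 and Mtf1 and for the genes of 3 lists, each gene drawn once (targets that are also carriers or stress genes stand under MTF1 targets). The intervals of Mt3, Slc30a1, Slc30a9, Slc39a13 and Txnrd1 leave out 0, and none of the genes shown passed the threshold after adjustment over all genes.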

How the data were processed

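Per the study's methods, poly(A) RNA of testes was made into stranded libraries and sequenced on a NovaSeq, and StringTie and Ballgown gave the values. The authors deposited FPKM per transcript for 6 libraries. The submitters' notes name mm10, and no aligner is named in the sources used here. The file holds no counts, so depth is unknown and its precision is given only by the spread between replicates.

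Identifiers of 27018 of the 27120 transcripts matched GENCODE M21 without version, and FPKM was summed by gene. The members and lists were chosen with earlier results of these data known. Genes or transcripts whose group mean exceeded 0.5 FPKM in either group were compared on log2(FPKM + 1) by limma 3.58.1 in R 4.3.3 (variance trend, group only, two-sided, Benjamini-Hochberg at 0.05), as 13769 genes and 25322 transcripts. Shares were compared by exact permutation. The limma fit was tested on simulated data. Python 3.11.15, pandas 2.3.3, scipy 1.17.1, Biopython 1.88 and matplotlib 3.10.9 were used.

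All members and their listed transcripts were named, with the 3 genes most like each, the cluster's neighbours, and of each list the most abundant gene and the 2 of smallest p. Selenow, Slc30a7, Slc30a9, Slc39a4, Slc39a8 and Slc39a10 were named after their values were seen. Alternatives changed the pseudocount, filter, scaling, variance trend, test, replicate block and libraries. Mt4, Mt3-202, Mt3-203 and Mtf1-204 were not analysed here.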

Additional observations from a re-analysis of the deposited data

How the results depend on the processing

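None of the 4 genes or their 10 transcripts passed the threshold under any alternative that was run. Of 60 alternative values for the genes 59 kept their direction, the exception being Mtf1 when its most abundant transcript alone was used (log2 fold change -0.20, adjusted p = 0.712, limma). The log2 fold changes ranged over -0.25 to -0.13 for Mt1 (adjusted p 0.217 to 0.681), 0.15 to 0.30 for Mt2 (0.190 to 0.671), 0.38 to 0.71 for Mt3 (0.241 to 0.609) and -0.20 to 0.20 for Mtf1 (0.398 to 0.904). Of 139 alternative values for the transcripts 136 kept their direction, and Mt1-203 ranged over -1.10 to 0.72 when each library was left out. The share of Mtf1-203 ranged over -0.0205 to 5.82 percentage points when a library was left out, its sign turning without H+H+Cd replicate 3. The genes past the threshold, 1 as reported, were 0 without a filter, 3 at a filter of 1 FPKM, 3 after median-ratio rescaling, 3 by limma without a trend and 0 by the adjusted F-test (1503 at an unadjusted p under 0.05), and 0 to 3 when a library was left out (lowest without H+Cd replicate 1, H+Cd replicate 3 or H+H+Cd replicate 2, highest without H+H+Cd replicate 3). The transcripts past the threshold, 33 as reported, were 11 to 86 when a library was left out (lowest without H+Cd replicate 2, 13 without H+H+Cd replicate 3, 17 without H+H+Cd replicate 2, highest without H+Cd replicate 1). The cause of these differences was not tested.

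The replicate numbers were not used to pair the animals in the main fit. Same-numbered libraries had correlations of deviations from their group means of -0.0759, -0.00177 and -0.163. So few values cannot show whether the animals were paired. Under a replicate block, limma called 0 genes (1037 at an unadjusted p under 0.05) and 1 transcript, and the adjusted p under the block was 0.608 for Mt1, 0.635 for Mt2, 0.608 for Mt3 and 0.757 for Mtf1.

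With 3 animals a group no exact test of a share can go below 0.1, and the depth behind the low values of Mt3 and of the minor transcripts is unknown.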
